A study of Rattus norvegicus with 8 samples.

Results

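Nitric oxide and cyclic GMP relax the vessel wall, and 9 genes of this pathway were followed in vein grafts: Nos3, Gucy1a3, Gucy1b3, Prkg1, Pde5a, Pde3a, Npr1, Npr2 and Npr3. They were taken by name from a table of 37209 genes, all 9 were found, and all 9 were among the 15464 genes with enough counts to be tested. The table holds Gucy1a3 and Gucy1b3 under these older symbols, which RefSeq now lists as Gucy1a1 and Gucy1b1. Nitric oxide made in endothelium by Nos3 crosses to the smooth muscle cell and binds soluble guanylyl cyclase, a dimer of one alpha and one beta subunit (Gucy1a3 and Gucy1b3) that makes cyclic GMP. Natriuretic peptides reach the same messenger through receptors of the cell surface, Npr1 and Npr2, which are themselves guanylyl cyclases, while Npr3 has no cyclase and clears the peptides. Cyclic GMP activates the kinase Prkg1, which lowers calcium and its effect on the contractile machinery, and phosphodiesterases such as Pde5a and Pde3a end or shape the signal.

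Graft veins (4 libraries) were set against control jugular veins (4 libraries), all from rats of the outbred Sprague Dawley stock whose age is not stated in the labels, taken 1 week after the operation. A graft vein had been set into the divided left common carotid artery over cuffs and so carried arterial blood. A control vein was the animal's own jugular vein of the opposite side, with no other agent or allele in either group and no sham operation named in the labels. RNA came from the vein tissue and was sequenced as total RNA, with 5981520 to 14267490 counts per control library and 10533451 to 16061189 per graft library. Levels are given as CPM, counts relative to the library total after adjustment by trimmed means (TMM). A gene rose or fell where edgeR's unpaired quasi-likelihood test gave a Benjamini-Hochberg adjusted p under 0.05 over all genes tested, and "edgeR adjusted p" below is that value. A gene with 3 counts stands at 0.182 to 0.56 CPM, depending on the library.

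The labels' extraction text names a brain region rather than a vein, so cell markers were checked first. The smooth muscle myosin Myh11 stood at 8091 ± 1608 CPM (SD, n = 4) in controls and at 672 ± 215 CPM in grafts, and the endothelial adhesion molecule Pecam1 at 420 ± 120 and 222 ± 32.9 CPM. The 10 neuronal and glial markers together held only 8.46 to 17 CPM in the controls, against 10.1 to 30.1 CPM in the grafts, and Gad2 had no count in any library. Of the 4 tested, 1 rose and 3 did not pass, where 21% of all genes tested rose. The 1 that rose was Map2, from 5.48 ± 3.45 to 15.5 ± 7.38 CPM with overlapping groups (edgeR adjusted p = 0.0405). Of 17 smooth muscle contractile genes, 17 fell in the grafts, with a median log2 fold change of -2.46 and a summed level of 18613 to 30069 CPM in the controls against 3352 to 6308 CPM in the grafts. Of 15 endothelial genes tested, 1 rose, 7 fell and 7 did not pass; the median was -0.32. All 12 adipocyte genes tested fell and 12 of 13 macrophage genes rose. The controls were not alike in fat markers: the 13 adipocyte genes summed to 594 and 852 CPM in controls 1 and 2 but to 2183 and 2758 CPM in controls 3 and 4, so the 9 genes and the ratios that moved most are also given without controls 3 and 4. In such tissue, fewer cells of a type and less RNA per cell cannot be told apart.

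Among the 9 genes, 4 fell, 0 rose and 5 did not pass. The 4 were both subunits of soluble guanylyl cyclase, the kinase Prkg1 and the phosphodiesterase Pde5a. Among all genes tested, 21.3% fell and 21% rose, and the 4 that fell are those whose control and graft libraries did not overlap, as was the case for 40.6% of all genes tested. Rises numbered 0 at an unadjusted p under 0.05 too, whether by edgeR, DESeq2 or limma voom. The median log2 fold change of the 9 genes was -0.92, and that of all genes tested was 0.01. The 4 genes that fell were 2.9-fold to 4.96-fold lower in the grafts. Nos3, Npr1 and Npr2, which did not pass, stood at log2 fold changes of -0.25, -0.18 and 0.0028, and at -0.50, -0.40 and 0.10 without controls 3 and 4. Without these controls the 4 genes that fell passed too, with log2 fold changes of -2.37 for Gucy1a3, -2.35 for Gucy1b3, -1.74 for Prkg1 and -1.63 for Pde5a.

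**Figure D1:**
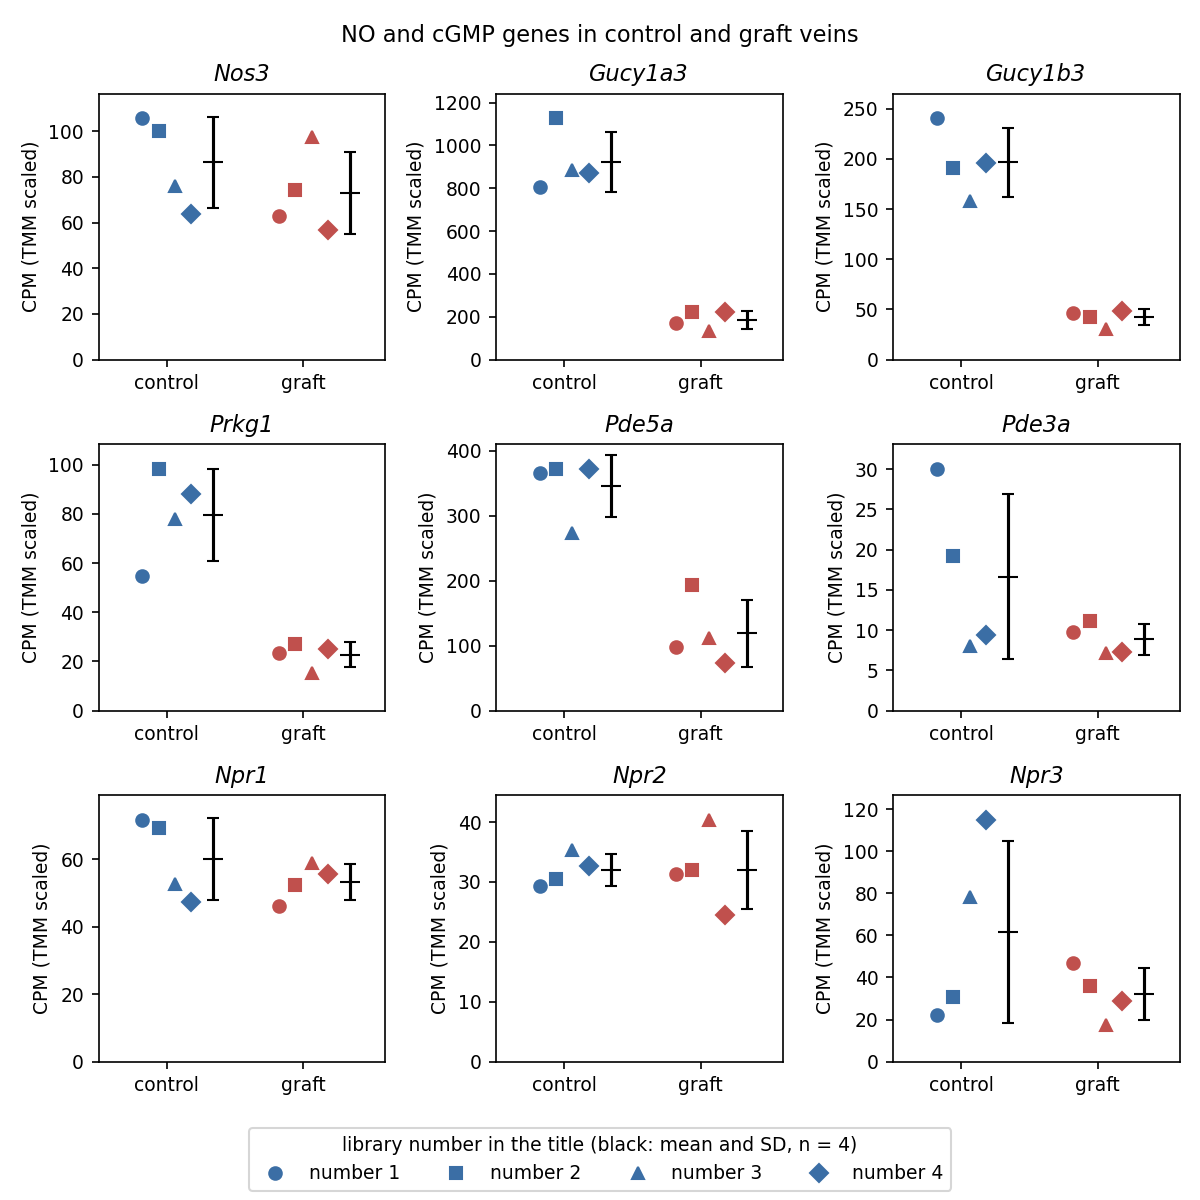
CPM of each of the 9 genes in every library, with control veins in blue and graft veins in red, symbols for the number in the sample title, and the mean and SD of 4 libraries in black beside them; every vertical axis starts at 0. Gucy1a3, Gucy1b3, Prkg1 and Pde5a are separated between the groups, and the other 5 genes overlap.

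Gucy1a3 and Gucy1b3 are neighbours on rat chromosome 2 in the RefSeq annotation of GRCr8, with no other protein-coding gene between them, and they fell together. The 250 bases before their RefSeq starts are shown with those of Prkg1, since these are the 3 genes of the cyclase and its kinase that fell. Sequences are from RefSeq on GRCr8, 5′ to 3′ on the strand of the gene, and capitals mark the GC box GGGCGG found on either strand.
Gucy1a3, chr2:169779624-169779873, minus strand: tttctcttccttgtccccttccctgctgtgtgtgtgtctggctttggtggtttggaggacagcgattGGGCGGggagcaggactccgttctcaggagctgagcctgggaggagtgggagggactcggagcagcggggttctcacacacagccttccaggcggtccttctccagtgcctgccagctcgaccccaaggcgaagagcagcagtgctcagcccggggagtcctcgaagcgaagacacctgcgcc
Gucy1b3, chr2:169696988-169697237, minus strand: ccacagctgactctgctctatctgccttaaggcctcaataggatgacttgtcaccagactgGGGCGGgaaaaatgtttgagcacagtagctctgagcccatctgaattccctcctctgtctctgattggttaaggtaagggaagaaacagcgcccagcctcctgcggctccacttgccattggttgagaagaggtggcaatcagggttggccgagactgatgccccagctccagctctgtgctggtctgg
Prkg1, chr1:239052185-239052434, minus strand: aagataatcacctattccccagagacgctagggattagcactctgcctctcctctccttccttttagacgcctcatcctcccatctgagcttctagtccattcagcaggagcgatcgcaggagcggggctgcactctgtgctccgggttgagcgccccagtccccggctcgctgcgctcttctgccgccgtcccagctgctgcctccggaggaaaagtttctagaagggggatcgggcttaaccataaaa
RefSeq places another, earlier start for Gucy1a3 and Gucy1b3: 250 and 73 of these bases lie within the gene's annotated span, and 0 do for Prkg1. Promoters were found for 8 of the 9 genes. Of the windows not printed, those of Npr1, Npr3 and Pde5a lay within the gene's annotated span over all 250 bases. That of Nos3 did so over 23 bases and that of Pde3a over 0. The GC box stood in the windows of Gucy1a3, Gucy1b3 and Pde5a, which fell, and also in those of Nos3 and Npr1, which did not pass, and it stood in 32.4% of 27457 rat promoters of that length. Neither the CArG box, the element bound by serum response factor at many smooth muscle genes, nor TATAAA was found on either strand in any of the 8 windows, where 1.5% and 13.1% of all promoters held them. No match overlapped one of another motif, since only the GC box was found. Such matches are letters in a window and were not tested for binding.

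Nos3, the endothelial nitric oxide synthase, stood at 106, 100, 76 and 63.6 CPM in control libraries 1 to 4, against 63, 74.2, 97.6 and 57 CPM in graft libraries 1 to 4. The groups overlapped, with graft 3 near the level of controls 1 and 2, and control 4 beside graft 1. The log2 fold change was -0.25 ± 0.21 (SE; edgeR adjusted p = 0.371), with an approximate 95% interval from -0.72 to 0.22, or from 0.609-fold to 1.17-fold of the control level. Without graft 3 it was -0.40 (edgeR adjusted p = 0.141), and without controls 3 and 4 it was -0.50 (edgeR adjusted p = 0.116). Over 17 alternative settings it ran from -0.50 to -0.0054, with edgeR, DESeq2 or limma adjusted p up to 0.987. Nos3 overlaps Atg9b in the annotation, but Atg9b held only 57 counts over all 8 libraries, against 3667 for Nos3 in the controls and 4134 in the grafts. Relative to the mean of the 15 endothelial genes within each library, Nos3 was higher in the grafts by 0.31 ± 0.25 on the log2 scale (SE), which did not pass (exact two-sided permutation p = 0.229, 0.419 adjusted over 11 ratios). That difference was 0.07 without controls 3 and 4. The endothelial genes were themselves divided, with 7 of 15 lower, where 21.3% of all genes tested fell. In log2 fold change the 7 were Vwf at -2.20, Emcn at -1.73, Mmrn2 at -1.30, Tek at -1.06, Pecam1 at -0.92, Icam2 at -0.73 and Esam at -0.65. Eng rose, at 0.62 (edgeR adjusted p = 0.0196). Tie1, Kdr, Egfl7, Sox17, Erg and Cldn5 stood at -0.06, -0.08, 0.007, 0.015, -0.27 and -0.32 and did not pass. Cdh5, at 233 ± 50 and 198 ± 11.8 CPM, did not pass over all libraries (edgeR adjusted p = 0.288). It passed in only 1 of 17 alternative settings, without control 1, at -0.38 (edgeR adjusted p = 0.0115). In the others its log2 fold change ran up to -0.0027, with edgeR, DESeq2 or limma adjusted p up to 0.991.

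Gucy1a3, the alpha subunit of soluble guanylyl cyclase, stood at 807, 1130, 884 and 873 CPM in control libraries 1 to 4, against 169, 220, 135 and 221 CPM in graft libraries 1 to 4. Every graft lay below every control, and the ranges were well separated. It fell by 2.31 ± 0.20 in log2 units (SE; edgeR adjusted p = 4.04e-05), or 4.96-fold. Gucy1b3, the beta subunit, stood at 241, 191, 158 and 196 CPM in the controls, against 46.8, 42.5, 31 and 48.8 CPM in the grafts. Again no library overlapped, and graft 3 was the lowest for both subunits. Gucy1b3 fell by 2.22 ± 0.18 (SE; edgeR adjusted p = 3.55e-05), or 4.64-fold.

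The balance of the subunits was compared as the ratio of Gucy1a3 to Gucy1b3 within each library. Its log2 value was 1.74, 2.57, 2.48 and 2.15 in control libraries 1 to 4, against 1.85, 2.37, 2.11 and 2.17 in graft libraries 1 to 4, and the groups overlapped throughout. The grafts differed from the controls by -0.11 ± 0.22 (SE; exact two-sided permutation p = 0.6, 0.733 adjusted over 11 ratios). As these are read counts without gene length, the ratio describes a change between groups and not how many alpha subunits there are for each beta. Gucy1a2, which encodes the other alpha subunit, stood at 13.6 ± 6.06 CPM in the controls, against 7.59 ± 1.97 CPM in the grafts (edgeR adjusted p = 0.0653). Gucy1b2 had 1 count in the controls and 19 in the grafts.

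Prkg1, the cyclic GMP dependent kinase of smooth muscle, stood at 54.6, 98.4, 77.8 and 88.1 CPM in control libraries 1 to 4, against 23.6, 27.3, 15.4 and 24.9 CPM in graft libraries 1 to 4. The groups did not overlap, with control 1 the lowest control and graft 3 the lowest graft. Prkg1 fell by 1.80 ± 0.22 in log2 units (SE; edgeR adjusted p = 0.000256), or 3.49-fold. The annotated span of this long gene also contains Cstf2t, which has its own row of 4401 counts and a log2 fold change of -0.58 (edgeR adjusted p = 0.0717), and the counting rule for reads in both is not given in the sources used here. Its relative Prkg2, known mainly from gut and bone, had 29 counts over the controls and 3 over the grafts, a ratio of 13.7 of controls over grafts (95% counting interval 4.26 to 70.5, counting error only), and is named here after its values were seen. The counts were uneven, with 16, 4, 7 and 2 in controls 1 to 4 and all 3 graft counts in graft 3.

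Pde5a, the phosphodiesterase specific for cyclic GMP and the target of sildenafil, stood at 366, 372, 274 and 372 CPM in control libraries 1 to 4, against 98.1, 193, 112 and 74 CPM in graft libraries 1 to 4. Graft 2 was the highest graft and control 3 the lowest control, and the groups did not overlap. Pde5a fell by 1.54 ± 0.27 in log2 units (SE; edgeR adjusted p = 0.00173), or 2.9-fold. Pde3a, which cleaves cyclic AMP and is inhibited by cyclic GMP, stood at 30, 19.2, 8.03 and 9.33 CPM in control libraries 1 to 4, against 9.77, 11.2, 7.2 and 7.25 CPM in graft libraries 1 to 4. Controls 1 and 2 were above every graft, whereas controls 3 and 4 lay within the range of the grafts.

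The log2 fold change of Pde3a was -0.92 ± 0.40 (SE) and did not pass over all libraries (edgeR adjusted p = 0.0898). It passed without controls 3 and 4, at -1.47 (edgeR adjusted p = 0.00559), and without control 3 alone, at -1.16 (edgeR adjusted p = 0.0348), and stood at -0.47 without control 1 (edgeR adjusted p = 0.261). Control 1, the highest for Pde3a, also held 239 CPM of 8 platelet and megakaryocyte genes in sum, against 16.6 to 24.1 CPM in controls 2 to 4 and 33.1 to 52.6 CPM in the grafts, and the part of these markers in the result was not tested. The ratio of Pde5a to Pde3a was lower in the grafts by 0.89 ± 0.44 on the log2 scale (SE), with overlapping groups (exact two-sided permutation p = 0.114, 0.314 adjusted over 11 ratios). Without controls 3 and 4 that difference was -0.27.

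**Figure D2:**
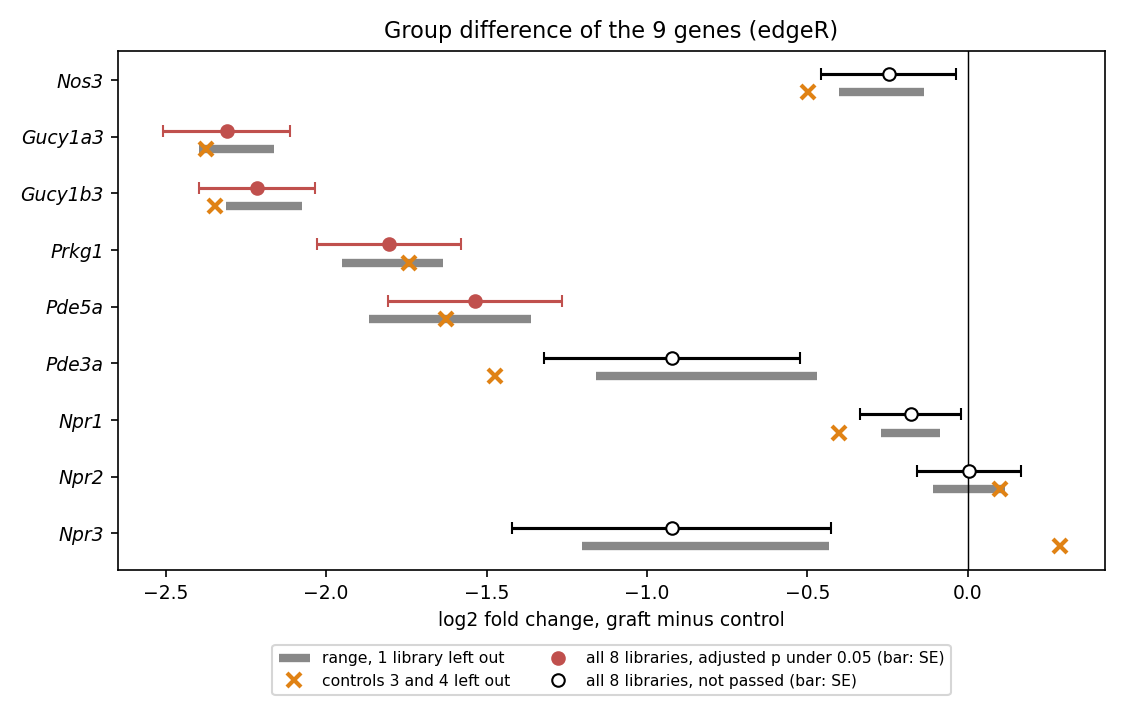
Log2 fold change of the 9 genes (horizontal axis, graft minus control), with filled red points for genes past the threshold, open points for those that did not pass, bars for 1 SE, grey bars for the range when 1 library is left out and crosses for the fit without controls 3 and 4. Gucy1a3, Gucy1b3, Prkg1 and Pde5a stay between -2.4 and -1.36 with 1 library left out, while the cross for Npr3 lies at 0.29, on the other side of 0.

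Npr1, the receptor of atrial and brain natriuretic peptide, stood at 71.8, 69.2, 52.6 and 47.2 CPM in control libraries 1 to 4, against 46.3, 52.3, 59 and 55.6 CPM in graft libraries 1 to 4. The groups overlapped, since controls 3 and 4 fell among the grafts and only controls 1 and 2 lay above them. Its log2 fold change was -0.18 ± 0.16 (SE; edgeR adjusted p = 0.388), with an approximate 95% interval from -0.53 to 0.17, and 0.055 with library totals alone as the scale. Without controls 3 and 4 it was -0.40 (edgeR adjusted p = 0.0638). Npr2, the receptor of C-type natriuretic peptide, stood at 29.4, 30.5, 35.4 and 32.7 CPM in the controls, against 31.3, 32.1, 40.4 and 24.5 CPM in the grafts. Here both the highest and the lowest library were grafts, and the group means were 32 ± 2.66 and 32 ± 6.53 CPM (SD, n = 4). The interval of its log2 fold change ran from -0.36 to 0.37 (edgeR adjusted p = 0.99), so a change beyond 1.29-fold either way lies outside it.

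Npr3, the clearance receptor, varied most of the 9 genes among the controls, relative to its mean. It stood at 22.4, 30.8, 78.3 and 115 CPM in control libraries 1 to 4, against 47, 35.9, 17.5 and 28.6 CPM in graft libraries 1 to 4. The grafts lay around the level of controls 1 and 2, and controls 3 and 4 were higher than every graft. The log2 fold change over all libraries was -0.92 ± 0.50 (SE; edgeR adjusted p = 0.163), became -1.20 without control 1 (edgeR adjusted p = 0.0483) and turned to 0.29 without controls 3 and 4 (edgeR adjusted p = 0.596). Within the controls Npr3 had the same order as the adipocyte genes, whose mean was 4.72, 5.03, 6.42 and 6.99 log2 CPM in controls 1 to 4. In the grafts that mean was 0.76 to 1.41 log2 CPM, with Npr3 above controls 1 and 2 in grafts 1 and 2. The part of fat tissue in the Npr3 values was not tested.

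**Figure D3:**
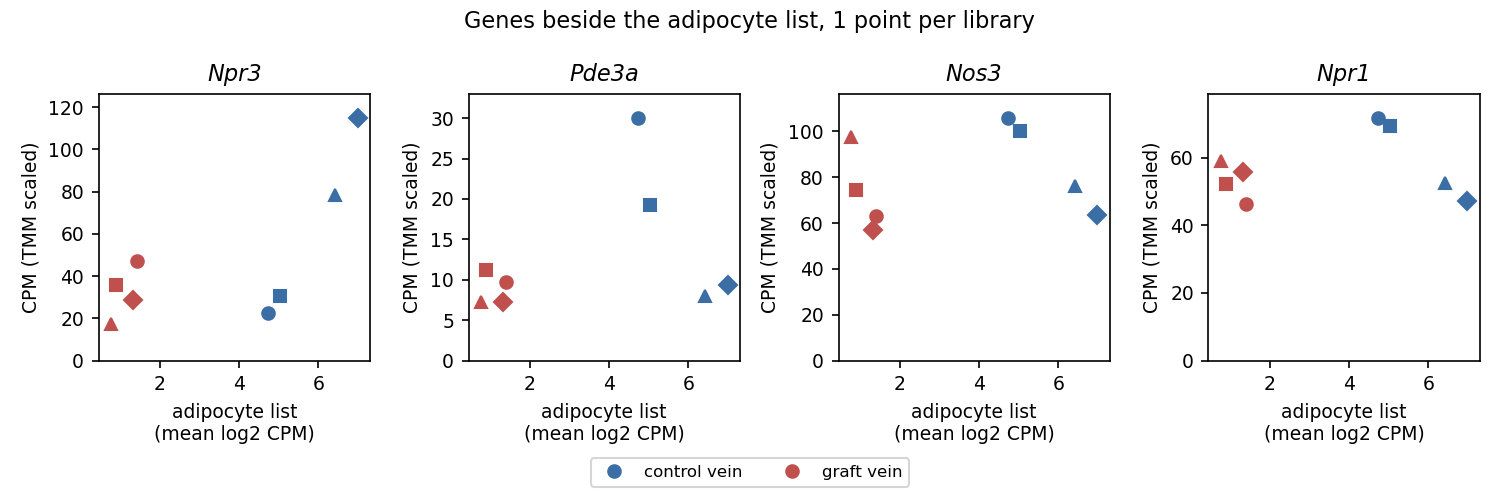
CPM of Npr3, Pde3a, Nos3 and Npr1 (vertical axes, from 0) against the mean log2 CPM of the adipocyte genes (horizontal axes), with 1 point per library, control veins in blue, graft veins in red and symbols as for the numbers in the titles. Among the 4 controls Npr3 goes from 22.4 to 115 CPM as the adipocyte mean goes from 4.72 to 6.99, while Nos3 and Npr1 go from 106 to 63.6 and from 71.8 to 47.2 CPM.

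The natriuretic receptors were also set against each other within libraries. The log2 ratio of Npr3 to Npr1 was -1.67, -1.16, 0.57 and 1.28 in control libraries 1 to 4, against 0.02, -0.54, -1.74 and -0.95 in graft libraries 1 to 4. The controls thus spanned the range of 3 of the grafts, and graft 3 lay just below control 1. The group difference was -0.56 ± 0.79 (SE; exact two-sided permutation p = 0.543, 0.733 adjusted over 11 ratios), and 0.61 without controls 3 and 4. For Npr3 to Npr2 it was -0.70 ± 0.64 (SE; exact two-sided permutation p = 0.343, 0.539 adjusted over 11 ratios), and it turned to 0.13 without controls 3 and 4. For Npr1 to Npr2 it was -0.14 ± 0.25 (SE; exact two-sided permutation p = 0.714, 0.771 adjusted over 11 ratios), and -0.48 without controls 3 and 4. None of the 3 receptor ratios passed, and their groups overlapped.

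The genes that fell were then compared with the contractile genes of smooth muscle, which fell in the same grafts. Relative to the mean log2 CPM of the 17 contractile genes in each library, Gucy1a3 differed between the groups by 0.08 ± 0.21 (SE; exact two-sided permutation p = 0.771, 0.771 adjusted over 11 ratios) and Gucy1b3 by 0.19 ± 0.12 (SE; exact two-sided permutation p = 0.2, 0.419 adjusted over 11 ratios). The libraries overlapped for both, so no difference between the fall of the cyclase subunits and that of the contractile genes was detectable with 4 libraries a group. Prkg1 stood higher relative to the contractile genes in the grafts by 0.61 ± 0.26 (SE; exact two-sided permutation p = 0.0571) and Pde5a by 0.79 ± 0.35 (SE; exact two-sided permutation p = 0.0857), each at 0.314 adjusted over 11 ratios. For Pde5a the spread was within the grafts: its log2 ratio to the contractile mean was 0.09 and 0.13 in grafts 2 and 3, and -0.94 and -1.19 in grafts 1 and 4, against -1.39 to -1.17 in the controls.

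Pde3a was the one gene of the 5 whose ratio to the contractile genes did not overlap between the groups. Its log2 ratio was -4.99, -5.59, -6.23 and -6.47 in control libraries 1 to 4, against -4.25, -3.995, -3.80 and -4.51 in graft libraries 1 to 4. The difference was 1.68 ± 0.37 (SE), or 3.21-fold, at the smallest p that 70 regroupings can give (exact two-sided permutation p = 0.0286), and it did not pass once adjusted over the 11 ratios (0.314). A ratio alone at this smallest p comes to 0.314 when adjusted over 11 ratios, so it could not pass by itself however well the groups were separated. Without controls 3 and 4 the difference was 1.15. The contractile mean itself was 9.27 to 9.91 log2 CPM in the controls and 6.68 to 7.56 in the grafts. A gene with no change would thus also stand higher in this ratio, and Pde3a itself, at -0.92, did not pass. How many of all genes would be separated in the same way was not counted, so the separation is not a trait of Pde3a alone. With 0 of 11 ratios past the adjusted threshold, 1 had an unadjusted p under 0.05, that of Pde3a.

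**Figure D4:**
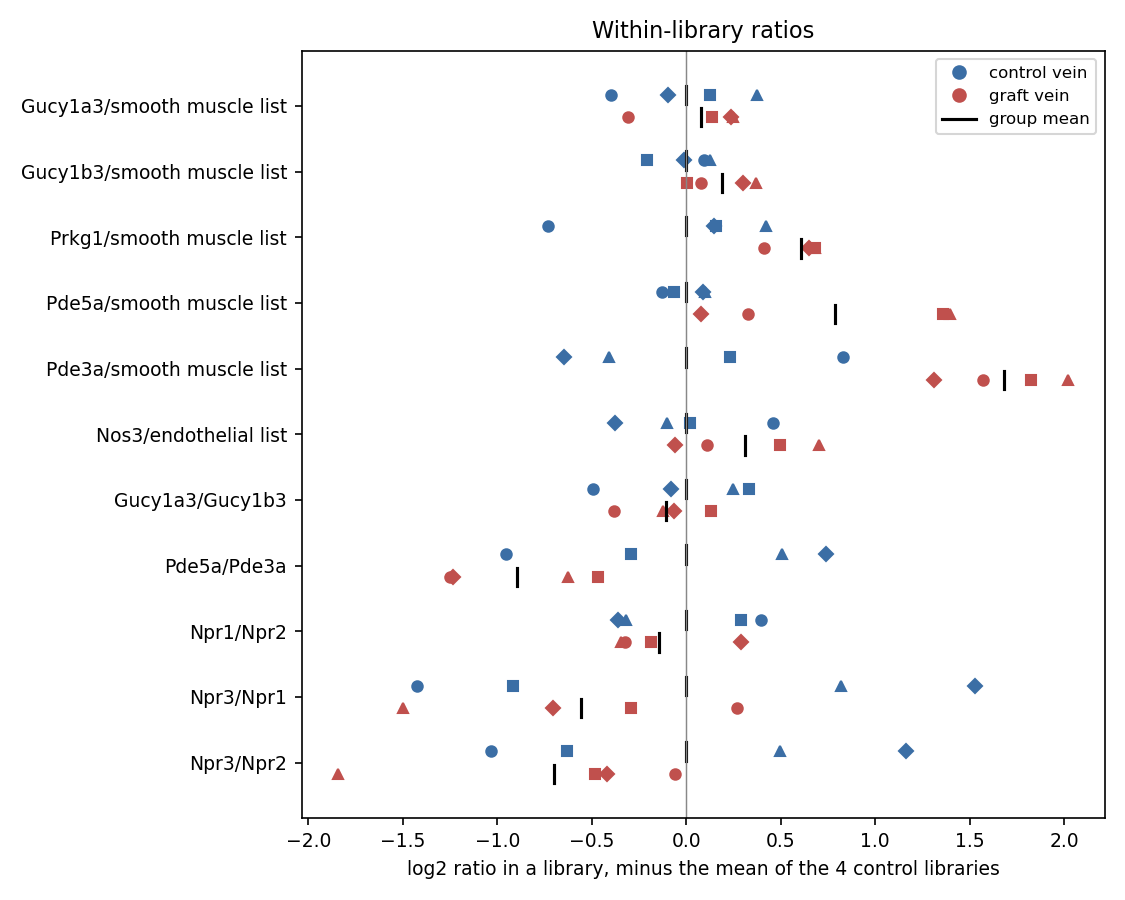
Log2 ratios within each library (horizontal axis, minus the mean of the 4 controls) for 5 genes against the contractile smooth muscle genes, Nos3 against the endothelial genes and 5 pairs of genes, with control veins in blue, graft veins in red, symbols as for the numbers in the titles and black bars for group means. Only the row of Pde3a against the contractile genes is free of overlap, with a difference of 1.68.

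The rest of the pathway was described by 55 further genes in 6 roles, of which 39 were tested. Of these, 8 rose, 14 fell and 17 did not pass, where 21% of all genes tested rose and 21.3% fell, or 42.3% in either direction. Their median log2 fold change was -0.43. Scaling by library totals alone, which moved the median of all genes from 0.01 to 0.23, gave 13 that rose and 11 that fell. The falls were most numerous among the targets of Prkg1, with 7 of 11. The rises were most numerous among genes of nitric oxide synthesis and its control, with 5 of 15, which is also the role with the most genes tested. In each of the roles of natriuretic peptides and of cyclic GMP export, 1 of 2 rose. Examples below other than the smallest p in each role and direction were chosen after their values were seen.

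In the role of nitric oxide synthesis, 5 genes rose, 3 fell and 7 did not pass, where 21% of all genes tested rose and 21.3% fell. Among the 5, Nosip rose by 0.84 ± 0.27 in log2 units (SE; edgeR adjusted p = 0.0336). That rise kept the threshold in 9 of 17 alternative settings, with edgeR, DESeq2 or limma adjusted p up to 0.164. With 1 library left out it kept the threshold in 1 of 8 fits. Cav1, the caveolar protein that holds Nos3 inactive, went from 1250 ± 187 to 426 ± 88.1 CPM (SD, n = 4) and fell by 1.55 ± 0.19 in log2 units (SE; edgeR adjusted p = 0.000256). Arg1, the arginase that competes for the substrate of nitric oxide synthases, stood at 1.35 to 7.28 CPM in the controls, against 17.4 to 71.1 CPM in the grafts, a rise of 3.42 ± 0.63 (SE; edgeR adjusted p = 0.00215). The size rested on single libraries, at 4.32 without control 3 (edgeR adjusted p = 0.000905), 2.81 without graft 2 (edgeR adjusted p = 0.00403) and 4.43 without controls 3 and 4 (edgeR adjusted p = 0.00387). Macrophages also carry Arg1, and the 13 macrophage genes summed to 393 to 645 CPM in the controls, against 3617 to 6730 CPM in the grafts; their part in this rise was not tested.

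Of the other nitric oxide synthases, Nos1 fell and Nos2 had nearly all of its few counts in the grafts. Nos1, the neuronal enzyme, stood at 25.2, 26.4, 14.6 and 10.5 CPM in control libraries 1 to 4, against 1.46, 3.91, 4.56 and 3.15 CPM in graft libraries 1 to 4. The groups did not overlap, and Nos1 fell by 2.57 ± 0.40 (SE; edgeR adjusted p = 0.000914). Nos2, the inducible enzyme, had too few counts to be tested, with 2 over the controls and 90 over the grafts, a ratio of 31.6 of grafts over controls (95% counting interval 8.51 to 265, counting error only). The graft counts were uneven, since graft 1 stood at 0.121 CPM and grafts 2 to 4 at 1.54 to 2.8 CPM. Of the enzymes that make the cofactor tetrahydrobiopterin, Gch1, Pts and Spr stood at log2 fold changes of 0.08, 0.42 and 0.40 and did not pass. Ddah1 and Ddah2, which degrade an inhibitor of the synthases, went apart: Ddah1 rose by 1.18 ± 0.29 (SE; edgeR adjusted p = 0.00885) and Ddah2 fell by 0.58 ± 0.16 (SE; edgeR adjusted p = 0.0175). Ddah2 did not pass with library totals alone (edgeR adjusted p = 0.125), without control 2 (edgeR adjusted p = 0.0566) or without graft 2 (edgeR adjusted p = 0.052).

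Of 11 targets and partners of the kinase tested, 7 fell, 1 rose and 3 did not pass, where 21.3% of all genes tested fell and 21% rose. The median was -1.74, and the 3 that did not pass were Vasp at 0.54, Rgs2 at -0.61 and Pln at -1.97. Ppp1r12a, the myosin phosphatase subunit through which cyclic GMP relaxes smooth muscle, stood at 822 to 991 CPM in the controls, against 240 to 315 CPM in the grafts, and fell by 1.74 ± 0.14 in log2 units (SE; edgeR adjusted p = 3.2e-05). Mrvi1, the partner that ties Prkg1 to the calcium store, went from 482 ± 121 to 81.2 ± 18.5 CPM, and fell by 2.57 ± 0.23 (SE; edgeR adjusted p = 4.83e-05). Kcnma1, the calcium-activated potassium channel that the kinase opens, went from 87.7 ± 14.9 to 10.4 ± 4.96 CPM, and fell by 3.07 ± 0.34 (SE; edgeR adjusted p = 0.000144). The 1 that rose was Trpc6, a cation channel that the kinase restrains, which stood at 8.84 to 10.7 CPM in the controls, against 22 to 30.3 CPM in the grafts, and rose by 1.38 ± 0.16 (SE; edgeR adjusted p = 0.000156). Many of these genes are also made at high level in smooth muscle, whose contractile genes fell with a median of -2.46, and the part of smooth muscle content was not tested for them.

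**Figure D5:**
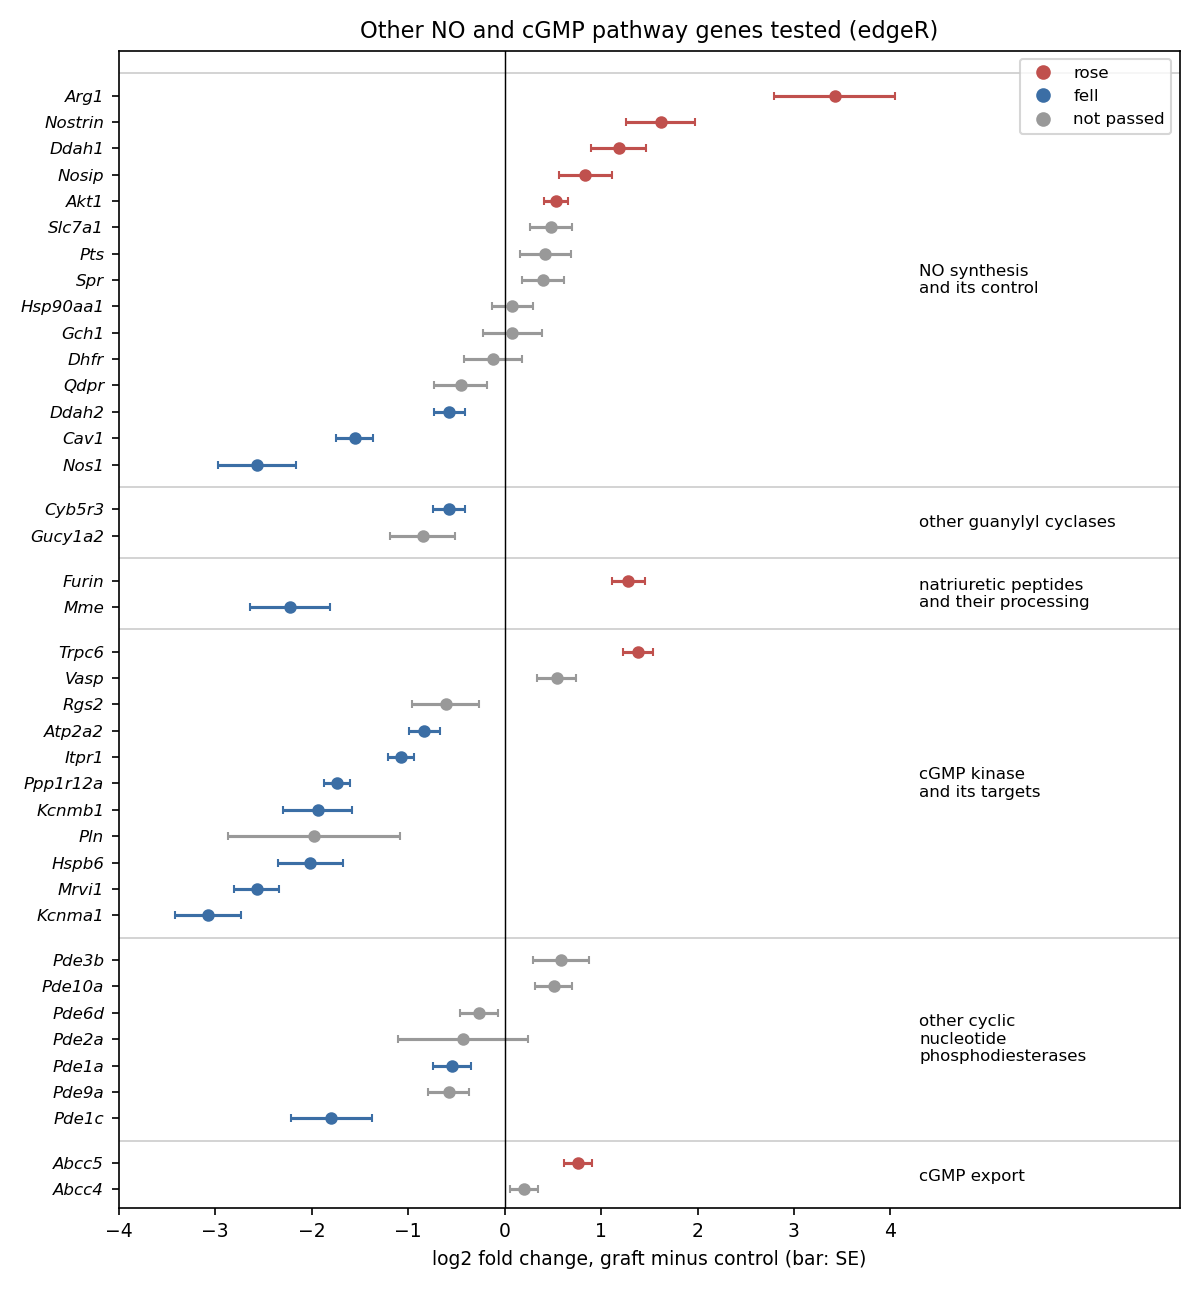
Log2 fold changes of the 39 further pathway genes tested (horizontal axis, graft minus control, bars for 1 SE), grouped by role, with red for genes that rose, blue for those that fell and grey for those that did not pass. The targets of the kinase lie mostly to the left of 0 with a median of -1.74, and the genes of nitric oxide synthesis spread from -2.57 to 3.42.

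Transcripts of the natriuretic peptides themselves were scarce. Nppb had no count in any library, Nppa had 4 counts over the controls and 0 over the grafts, and Nppc had 8, all in control 1, and 3. Corin, the protease that activates atrial natriuretic peptide, had 10 counts over the controls and 14 over the grafts. Ostn, a muscle-derived ligand of Npr3, had 11 control counts, from controls 3 and 4 alone, and 0 in the grafts, at least 5.21-fold higher in the controls against a floor of 3 counts over the graft group. Controls 3 and 4 also held more skeletal muscle transcripts, with 1478 and 202 CPM over 8 markers against 34.9 and 27.9 CPM in controls 1 and 2, and the grafts held 36.6 to 885 CPM. The part of these markers in the Ostn counts was not tested. Furin, one of the proteases that process such peptides, went from 84.2 ± 21.1 to 205 ± 13.5 CPM and rose by 1.28 ± 0.17 in log2 units (SE; edgeR adjusted p = 0.000356). Mme, neprilysin, which degrades natriuretic peptides, stood at 45, 103, 168 and 211 CPM in control libraries 1 to 4, against 30.9, 24.6, 35.7 and 21.1 CPM in graft libraries 1 to 4, and fell by 2.23 ± 0.41 (SE; edgeR adjusted p = 0.00229). All 4 grafts lay below all 4 controls, and within the controls Mme had the order of Npr3 and of the adipocyte genes. Without controls 3 and 4 its log2 fold change was -1.40 (edgeR adjusted p = 0.0163), and the part of fat tissue was not tested.

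Of 7 other phosphodiesterases tested, 2 fell, 0 rose and 5 did not pass, where 21.3% of all genes tested fell and 21% rose. Pde1c, a calcium-regulated enzyme for both cyclic nucleotides, went from 3.28 ± 0.78 to 0.929 ± 0.432 CPM and fell by 1.80 ± 0.42 in log2 units (SE; edgeR adjusted p = 0.00775). Pde1a fell by 0.54 ± 0.19 (SE; edgeR adjusted p = 0.0454) with overlapping groups, and passed in only 3 of 17 alternative settings, with edgeR, DESeq2 or limma adjusted p from 0.00252 to 0.333. Of the exporters of cyclic nucleotides, Abcc5 rose by 0.76 ± 0.15 (SE; edgeR adjusted p = 0.00293), from 78.2 ± 15.1 to 133 ± 13.6 CPM, and Abcc4 stood at 0.20 and did not pass. Cyb5r3, the reductase that keeps the heme of soluble guanylyl cyclase able to bind nitric oxide, fell by 0.58 ± 0.17 (SE; edgeR adjusted p = 0.0199), and did not pass with library totals alone (edgeR adjusted p = 0.0725), without control 2 (0.065), without control 4 (0.0609) or without graft 3 (0.055).

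Genes with the profile most like each of the 9 were sought among 10527 others with a mean of at least 5 CPM, by the root mean square difference of log2 CPM over the 8 libraries after centring each gene on its mean. For Gucy1a3 these were Rragd and Ccdc65, at 0.14 and 0.16, and for Gucy1b3 they were Susd2 and Olfml1, also at 0.14 and 0.16. For Prkg1 they were Tmtc1 and Cers4, at 0.11 and 0.16. The nearest profiles to Pde5a lay farther off, Sycp2 and Htr2a both at 0.28. Npr3 was nearest to Idi1 and Hmgcs1, at 0.23 and 0.27, and Pde3a to Arnt2 and Kctd15, at 0.23 and 0.24. Among the genes with little group difference these were Nav2 and Gtpbp1 for Nos3, at 0.13 and 0.14, Mxd1 and Zc3h10 for Npr1, at 0.079 and 0.084, and Proser1 and Usp48 for Npr2, at 0.082 and 0.097. These distances are descriptions over 8 libraries, and for the genes that fell the profile includes the difference between the groups.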

How the data were processed

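RNA of 4 graft veins and 4 control jugular veins was analysed from a table of whole-number counts per gene, which the authors deposited with 1 column per sample title and no normalization found in the values. Reads were aligned with HISAT2 2.0.4 to Rnor_6.0, per the submitters' processing notes. How reads were assigned to genes, with which annotation and strand setting, is not given in the sources used here, so whether reads of overlapping genes were told apart is not known. Groups and numbers come from the titles.

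The test was edgeR 4.0.16 under R 4.3.3: filterByExpr (minimum count 10), TMM factors, glmQLFit and glmQLFTest on group, and Benjamini-Hochberg adjustment over 15464 genes. Standard errors are the absolute log2 fold change over the square root of F, and intervals use the test's degrees of freedom. Ratios are differences of log2 CPM (prior count 2) within a library, compared by an exact permutation of 8 libraries and adjusted over 11 ratios. Where counts were too few for the test, ratios of summed counts carry exact 95% binomial intervals. DESeq2 1.42.0 and limma 3.58.1 (voom) were alternatives. The procedure was tested on simulated counts in which only a small share of genes differed, in both directions. In these data 42.3% of genes tested changed, so that simulation does not bear on the choice of scaling.

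The 9 genes, the further lists and the tests were chosen with earlier results of these data known. The rule for named genes took the 9, in each role of the pathway the called gene with the smallest p in each direction, every detected gene of the peptide role, the defining cell markers, and the 2 genes most like each of the 9. Other named genes (Nos1, Nos2, Gch1, Pts, Spr, Ddah1, Ddah2, Nosip, Mrvi1, Kcnma1, Vasp, Rgs2, Pln, Pde1a, Abcc4, Gucy1a2, Gucy1b2, Prkg2, Vwf, Emcn, Mmrn2, Tek, Icam2, Esam, Eng, Tie1, Kdr, Egfl7, Sox17, Erg, Cldn5, Gad2, Map2) were chosen after their values were seen. No 2 libraries of a group were as alike as sampling noise allows. The labels speak of pairs, with the control from the opposite side of the same rat. Titles and source names number the libraries differently, so edgeR's test and the permutations of ratios are unpaired. Both treat the libraries as independent, and any likeness of veins from the same rat is left out of their p-values.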

Additional observations from a re-analysis of the deposited data

Results flagged for a closer look

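Of 40 groups of 4 libraries checked, over the 9 genes and the 11 ratios, 2 held a library far from the other 3, and chance marks about 1 in 20. Pde5a in control 3, at 274 CPM, lay below the other controls, which stood at 366 to 372 CPM. The log2 ratio of Prkg1 to the contractile genes in graft 1, at -2.99, lay below the other grafts, which stood at -2.76 to -2.72.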

How the results depend on the processing

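The falls of Gucy1a3, Gucy1b3, Prkg1 and Pde5a kept direction and threshold in all 17 alternatives (other scalings, tools and filters, thinned counts, each library left out, controls 3 and 4 left out, a replicate block), with log2 fold changes from -2.4 to -1.31 and adjusted p up to 0.00935. With 1 library left out, 4 to 5 of the 9 genes fell and 0 rose, and 7 to 12 further pathway genes rose and 11 to 16 fell. Library totals alone gave 13 pathway genes that rose, 2164 of all genes that fell (3288 with TMM) and 4558 that rose (3250 with TMM), and a log2 fold change of 0.055 for Npr1. Npr2 stood at 0.24 with library totals alone, -0.0048 with DESeq2 size factors and with DESeq2, -0.020 with limma voom, -0.011 in thinned counts and -0.11 to 0.12 with 1 library left out. Without controls 3 and 4, Npr3 stood at 0.29 and the differences in log2 ratio were 0.61 for Npr3 to Npr1, 0.13 for Npr3 to Npr2 (-0.70 with all libraries), -0.48 for Npr1 to Npr2 (-0.14), 0.07 for Nos3 to the endothelial genes (0.31), -0.27 for Pde5a to Pde3a and 1.15 for Pde3a to the contractile genes; the cause was not tested. With 1 library left out, Gucy1a3 to Gucy1b3 ranged from -0.27 to 0.00070 and Gucy1a3 to the contractile genes from -0.055 to 0.21, and no ratio passed (smallest adjusted p = 0.157, exact permutation). There too the exact permutation p cannot go below 0.0286, so a ratio alone could not pass once adjusted over 11. With 2 controls the smallest p is 0.0667, so those ratios carry no test.

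With the replicate block on the title numbers, 4 of the 9 genes fell, 8 pathway genes rose and 13 fell, and Npr2 stood at -0.012. Sign flips of paired ratios cannot go below an exact p of 0.125. Deviations of same-numbered libraries correlated at -0.07, 0.18, 0.07 and 0.05 for numbers 1 to 4, over 15464 genes. The libraries also differ in fat and skeletal muscle markers, so these values cannot tell whether same-numbered veins came from the same rat. Only graft 2 correlated best with the control of its own number.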
